A study of Mus musculus with 24 samples.

Results

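The regions described here are short H3K4me3 regions that were listed as unique to KDM1A-knockdown cells. Each lies between a pair of regions listed as common to both conditions, and most overlap these in part. They were taken from 3 deposited region lists, which hold regions unique to the knockdown, regions unique to the wild type and regions common to both. A knockdown region was included if it lay on one of 18 autosomes (1 to 14 and 16 to 19), was under 1000 bp long and touched one common region at its left end and a different one at its right end. Touching meant a gap of at most 1 bp, and overlap counted as touching. This rule was met by 2526 regions, of 13088 knockdown regions on these autosomes, 14823 in the whole list and 63425 regions in all 3 lists. They are called gap-filling knockdown regions below, and the common regions on either side of them are called flanks. They were chosen by the deposited calls, that is by the scores of the comparison behind the lists, and by position and length. These values are therefore given as descriptions and not as findings.

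Trimethylation of lysine 4 on histone H3 marks nucleosomes around active transcription start sites. It is deposited by methyltransferase complexes of the SET1 and MLL type, and at active genes the marked stretch is commonly interrupted where nucleosomes are depleted. KDM1A (LSD1) is a demethylase that acts on mono- and dimethylated H3K4 but not on the trimethylated form, as part of corepressor complexes. Broad H3K4me3 domains are known for covering genes of cell identity, and a break in such a domain can appear as separate called pieces.

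The material was leukemic spleen cells of Eµ-TCL1A mice on the C57BL/6 strain, in which a TCL1A transgene under immunoglobulin regulatory elements drives a B-cell disease resembling chronic lymphocytic leukemia. KDM1A-knockdown and wild-type mice both developed this leukemia, so the transgene is shared by all groups and "wild-type" refers to KDM1A alone. Each condition had 6 H3K4me3 immunoprecipitation libraries and 6 input libraries, from 3 biological replicates with 2 technical replicates each. The sources used here state neither age nor sex nor the means of knockdown. The labels call the cells leukemic splenocytes, and neither this label nor the KDM1A level could be checked by expression, since the lists hold none. Depth is unknown. The lists compare the conditions as a whole with no value per library, so no difference below could be set against the spread between replicates, and no test was made. Spread is given as quartiles over regions and as the range over the 18 autosomes. The 95% Wilson interval beside a share reflects counting error alone and takes regions as independent, although neighbours share flanks.

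Regions unique to the knockdown made up 22.4% of all regions listed on the 18 autosomes, and regions unique to the wild type 8.58%. The 2526 gap-filling regions were 19.3% of the knockdown regions there (18.6 to 19.99%). Of the other knockdown regions, 6215 touched no common region, 3065 touched one at a single end, 1062 lay inside a single common region and 220 lay between 2 common regions but were 1000 bp or longer. The same rule applied to the wild-type list found 1967 regions, 39.2% of that list (37.9 to 40.6%). Gap-filling regions were thus more numerous in the knockdown list and a larger share of the wild-type list.

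Gap-filling knockdown regions were 356 bp long in the median, with quartiles of 282 and 515 bp. Their wild-type counterparts had a median of 424 bp (322 and 551 bp). The deposited score is 1 value per region that the authors left undefined in the file headers. Its median was 4.34 in the gap-filling knockdown regions (3.96 and 4.94), against 4.47 in all knockdown regions on these autosomes (3.86 and 5.61). The upper quartile was thus lower in the gap-filling regions. The median score was 5.70 in the wild-type counterparts (4.30 and 9.09), against 5.28 in all wild-type regions on these autosomes (4.10 and 8.20). A score of at least 5 was reached by 23.2% of the gap-filling knockdown regions and by 59.9% of the wild-type counterparts. The length limit cut through a thin tail. The longest regions included were 999, 993 and 992 bp, with scores of 4.36, 4.83 and 4.66, and the shortest left out were 1000, 1000 and 1002 bp, with scores of 4.06, 3.91 and 6.77.

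The lists are not a clean partition of the genome, and the gap-filling regions show this. Common regions never lay closer to each other than 101 bp on these autosomes, whereas most gap-filling knockdown regions ran into their flanks. Overlap was present at both ends in 1582 regions (62.6%), at one end in 797 (31.6%) and at neither end in 147 (5.82%, interval 4.97 to 6.80%). Wild-type counterparts overlapped less, with 368 of 1967 free of overlap at both ends (18.7%, 17.0 to 20.5%). The gap-filling knockdown regions summed to 1061 kb, of which 725 kb lay between the flanks and 31.6% was shared with them. In the wild-type counterparts 15.7% was shared. No listed region was shorter than 200 bp, so a region reaching across a shorter distance must overlap a flank. Regions of any length bridged 2740 distances under 1000 bp in the knockdown list and 2055 in the wild-type list. Of these, 998 and 353 were of 101 to 200 bp. Part of the overlap thus follows from the minimum length, and its share in the difference between the lists was not tested.

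Where a region overlapped its flanks, the part between them was shorter than the region itself. The distance between the flanks had a median of 242.5 bp (161 and 354 bp) at gap-filling knockdown regions and of 370 bp (244.5 and 489 bp) at wild-type counterparts. It was shorter beside knockdown regions on 18 of 18 autosomes, where the medians ranged from 214.5 to 269.5 bp for knockdown and from 340 to 409 bp for wild type. The shapes differed too. Distances at knockdown regions declined from the shortest class onward, as empty gaps did, while those at wild-type regions were spread broadly up to about 500 bp.

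**Figure D1:**
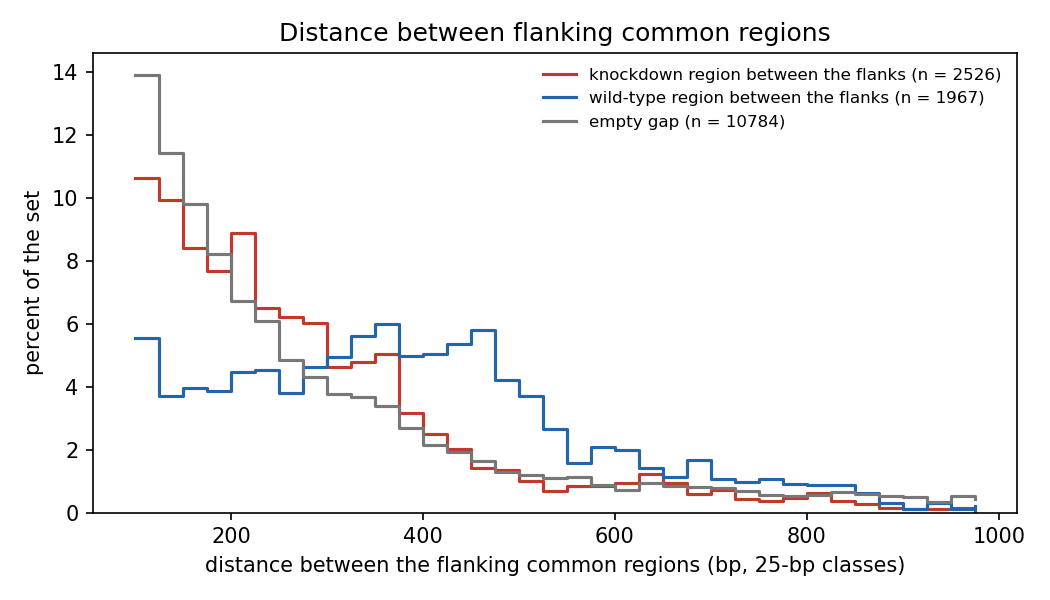
Distance between the 2 flanking common regions (x axis, bp) against the percent of each set in classes of 25 bp (y axis), for 2526 gap-filling knockdown regions, 1967 wild-type regions in the same position and 10784 empty gaps under 1000 bp. The knockdown curve falls with distance, with a median of 242.5 bp, and the wild-type curve stays broad, with a median of 370 bp.

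Overlap varied with score. Gap-filling knockdown regions were ranked by score into 4 equal classes. In the lowest, with scores of 3.14 to 3.96, the part between the flanks was 45.8% of the region in the median and 5 of 632 regions were free of overlap. In the highest, with scores of 4.94 to 47.4, it was 90.8%, and 108 of 632 were free of overlap (17.1%). The distance between the flanks followed the same order, with medians of 141, 209, 288 and 352 bp from the lowest class to the highest. In the lowest class the median distance was below the minimum region length of 200 bp, so overlap there arises in part by construction. Since the score comes from the same comparison that chose the regions, the order over classes is given as a description.

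The flanks were as long on one side as on the other when taken by coordinate. The left flank had a median of 1011 bp (490 and 2504 bp) and the right flank of 1016 bp (497 and 2302 bp), against 873 bp for all 40376 common regions on these autosomes. The longer flank lay at the higher coordinate in 1263 of 2525 pairs of unequal length (50.02%, 48.1 to 52.0%). The lists carry no strand, so this says nothing about direction of transcription. Knockdown regions under 1000 bp that touched a common region at a single end had a flank of 744 bp in the median (n = 2611).

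Within each pair, however, the flanks were unequal. The shorter flank had a median of 559 bp (358 and 1032 bp) and the longer one of 2056 bp (991 and 3581 bp). The ratio of longer to shorter had a median of 2.63 (1.58 and 5.04) and reached 57.5. It was at least 2 in 1577 pairs (62.4%, 60.5 to 64.3%), at least 5 in 646 (25.6%, 23.9 to 27.3%) and at least 10 in 235. Neighbouring common regions 1 to 5 kb apart had a median ratio of 2.77. Their ratio was at least 2 in 62.7% of 5133 pairs (61.4 to 64.0%) and at least 5 in 30.0% (28.7 to 31.3%). Unequal flanks were thus not particular to gap-filling regions. In 767 cases (30.4%) the gap-filling knockdown region was longer than its own shorter flank.

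Pairs were sorted into 3 groups by size, at a chosen cut of 1000 bp. Both flanks were at least 1000 bp in 674 pairs (26.7%), both were under 1000 bp in 642 (25.4%), and the remaining pairs combined a flank of each size. Over classes of the ratio, the longer flank grew while the shorter one shrank. The ratio is made of these lengths, so this follows largely by construction. Among pairs with a ratio under 1.5 the median shorter and longer flanks were 769 and 945.5 bp, and among pairs with a ratio of 10 or more they were 345 and 5637 bp. Length and score of the gap-filling region itself hardly varied over these classes, with medians of 349 to 365 bp and of 4.28 to 4.41.

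Wild-type regions in the same position joined more equal pieces. Their flanks had a median ratio of 1.82 (1.31 and 2.88), and 43.5% of pairs (41.3 to 45.7%) had a ratio of at least 2, against 62.4% at gap-filling knockdown regions. Pooled over all gap lengths, the shorter flank had a median of 559 bp beside knockdown and 946 bp beside wild-type regions. The longer flank had pooled medians of 2056 bp beside knockdown and 2047 bp beside wild-type regions, but differed within classes of gap length, as given below. On 18 of 18 autosomes the median ratio was higher, and the median shorter flank shorter, beside knockdown regions. The ratio ranged over these autosomes from 2.27 to 2.95 for knockdown and from 1.52 to 1.96 for wild type.

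Empty gaps gave a second standard of comparison. On the 18 autosomes 16807 gaps under 1000 bp separated neighbouring common regions. A knockdown region of any length that touched both sides spanned 2740 of them (16.3%, 15.8 to 16.9%) and a wild-type region 2055 (12.2%, 11.7 to 12.7%). A further 1228 were covered in part, and 10784 (64.2%) held no region of either list. Flanks of empty gaps were more unequal than those of gap-filling knockdown regions, with a median ratio of 3.82 (1.70 and 9.04). The pooled median of the longer flank was 2056 bp beside knockdown regions and 2027 bp beside empty gaps, and that of the shorter one was 559 bp beside knockdown regions and 349 bp beside empty gaps. The knockdown value lay between those of empty and wild-type gaps on 18 of 18 autosomes, both for the ratio and for the shorter flank.

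**Figure D2:**
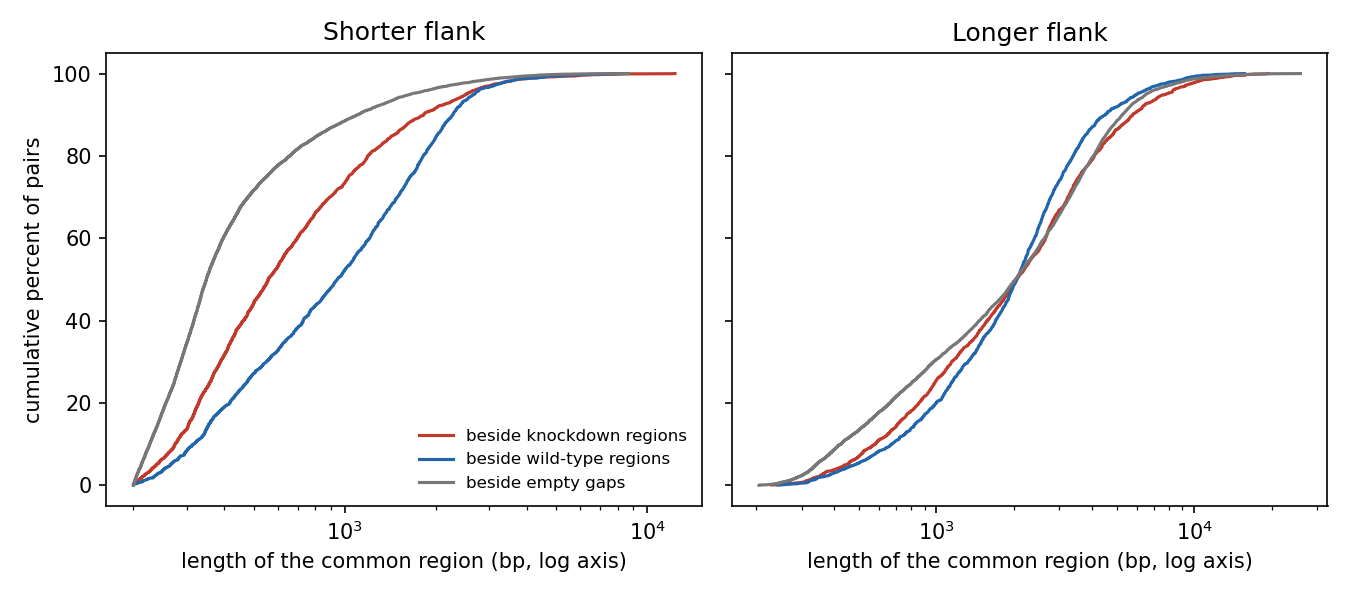
Cumulative percent of pairs (y axis) by length of the shorter flank (left) and the longer flank (right), in bp on a log axis, beside gap-filling knockdown regions, wild-type regions in the same position and empty gaps. Median shorter flanks were 559, 946 and 349 bp, and median longer flanks were 2056, 2047 and 2027 bp, all pooled over gap lengths.

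The order of the ratios was the same within classes of gap length. The 16807 gaps were split into 8 classes of length, and in 8 of 8 the median ratio was highest at empty gaps and lowest at gaps spanned by wild-type regions. For gaps of 101 to 200 bp the medians were 2.64 where a knockdown region spanned the gap, 1.86 where a wild-type region did and 3.54 where it was empty. For gaps of 401 to 500 bp they were 2.67, 1.84 and 4.04 in the same sets. The shorter flank was longest beside wild-type regions and shortest beside empty gaps in 8 of 8 classes. The longer flank did not stay alike. For gaps of 101 to 200 bp its median was 2033 bp at knockdown regions, 1391 bp at wild-type regions and 2152 bp at empty gaps. For gaps of 401 to 500 bp it was 1495 bp at knockdown regions, 2377 bp at wild-type regions and 2004 bp at empty gaps. The knockdown and wild-type medians thus stood in opposite order in these classes, which the pooled values do not show. The share of gaps spanned, in contrast, changed with their length in different ways. Knockdown regions spanned 16.1% of gaps of 101 to 200 bp (15.2 to 17.0%) and 20.5% of those of 201 to 300 bp (19.2 to 21.8%), the highest value of any class. Wild-type regions spanned 5.70% and 9.93% of these classes. At 401 to 500 bp the order was the opposite, with 13.3% spanned by knockdown (11.6 to 15.1%) and 27.1% by wild-type regions (24.9 to 29.4%).

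**Figure D3:**
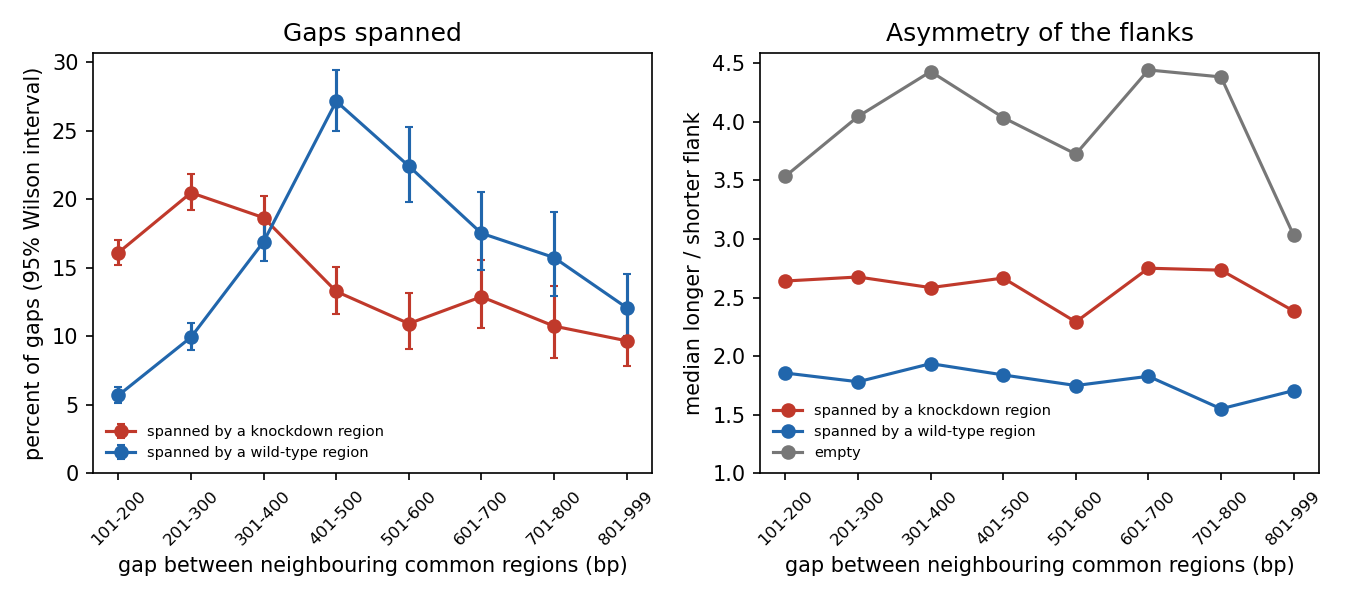
Gaps between neighbouring common regions by length (x axis, bp). Left, percent spanned by a knockdown or a wild-type region, with 95% Wilson intervals, where knockdown peaks at 201 to 300 bp (20.5%) and wild type at 401 to 500 bp (27.1%). Right, median ratio of longer to shorter flank, where knockdown lies between wild type and empty in all 8 classes.

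The shorter flank also had the higher score more often than the longer one. Scores of common regions, likewise undefined in the headers, all lay below 3, and none was negative. In pairs around gap-filling knockdown regions it had a median of 1.34 on the shorter and 0.787 on the longer flank, against 0.507 over all common regions of these autosomes. The shorter flank scored higher in 1855 of 2526 pairs (73.4%, 71.7 to 75.1%). Around wild-type counterparts the medians were 0.708 on the shorter and 0.597 on the longer flank, and the shorter one scored higher in 59.1% (56.9 to 61.2%). Bases shared with both flanks had a median of 108 bp at gap-filling knockdown regions and 34 bp at wild-type counterparts. Whether this overlap, or the choice of regions by the same lists, bears on the flank scores was not tested.

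Joining all regions of the 3 lists that touched each other gave 2015 stretches with at least 1 gap-filling knockdown region, 5.73% of the 35188 stretches that held a common region. A single gap-filling region was present in 1658 of them (82.3%, 80.6 to 83.9%). There were 262 stretches with 2, 64 with 3, 17 with 4, 7 with 5, 3 with 6, 1 with 7 and 3 with 8. Stretches with several held 868 of the 2526 regions (34.4%). Among 1805 stretches with wild-type counterparts, 92.5% (91.2 to 93.6%) had 1 and the highest number was 6.

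Stretches with gap-filling knockdown regions were long. Their median was 4250 bp (2499 and 6421 bp), against 4107 bp for stretches with wild-type counterparts and 765 bp for the 27605 common regions that touched nothing. A stretch must hold 2 common regions and a region between them, so it is longer by construction. Over stretches with 1 to 4 gap-filling regions length rose with their number, with medians of 3951 bp at 1, 5518 bp at 2, 8014 bp at 3 and 9083 bp at 4. The median number of common regions in these stretches was 2, 3, 4 and 5, so this rise too follows in part by construction. The bases between flanks took up a small part of a stretch, 7.02% in the median (3.97 and 12.7%).

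The simplest arrangement was the most common one. In 1010 stretches (50.1%) there was 1 gap-filling region with its pair of flanks and nothing else. There the median shorter and longer flanks were 601.5 and 2415 bp, with a ratio of 2.74. The centre of the region lay a median of 28.7% of the stretch length from the nearer end. It lay within 20% of the stretch length from an end in 296 stretches (29.3%) and at least 40% from both ends in 261 (25.8%). Of all 2015 stretches, 731 (36.3%) also held another knockdown region and 163 (8.09%) a wild-type region. The flanks comprised 4569 distinct common regions, 11.3% of those on these autosomes. Of these, 483 flanked a gap-filling region on either side, with a median length of 792 bp, and 4086 flanked one, with a median of 1094 bp.

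**Figure D4:**
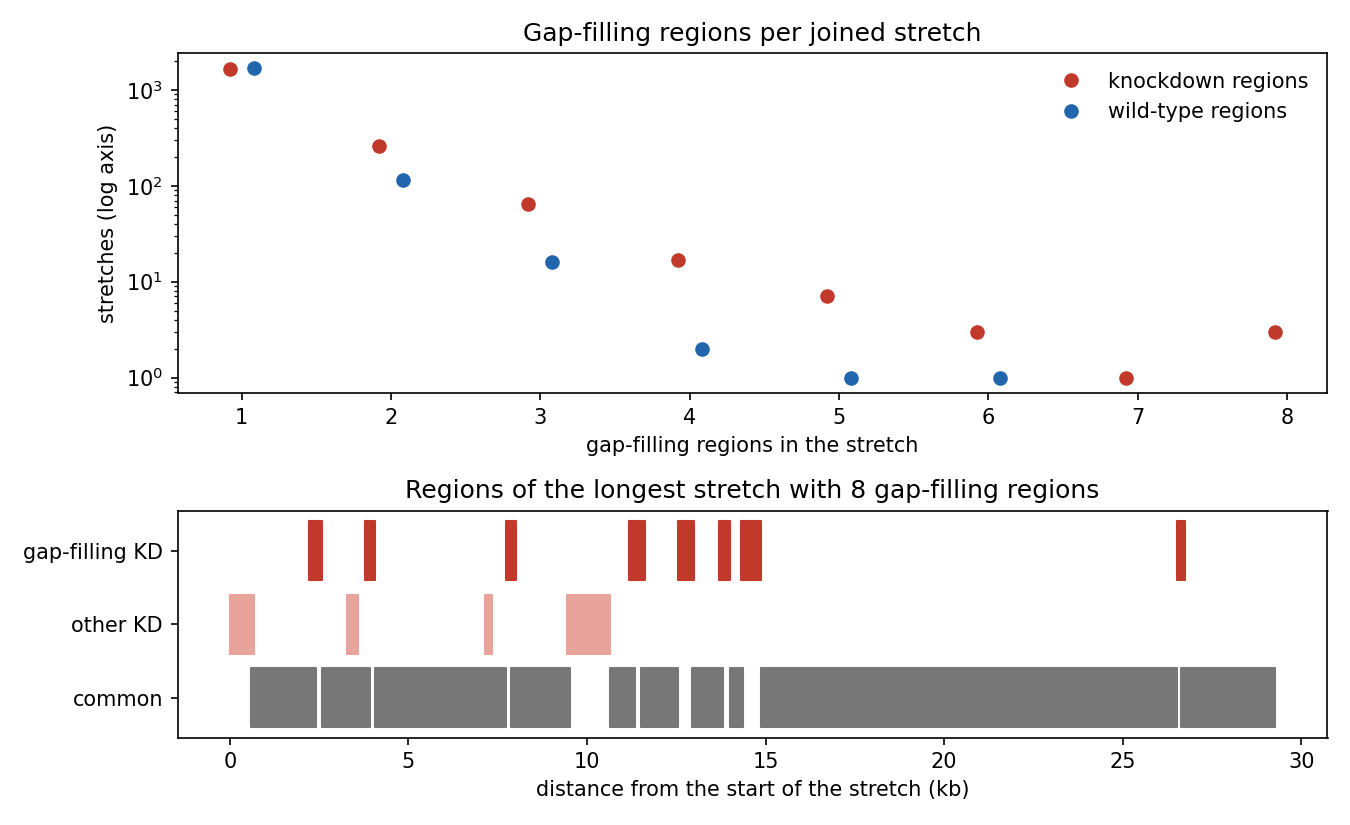
Top, number of joined stretches (log axis) by the number of gap-filling knockdown or wild-type regions in them, from 1658 stretches with 1 knockdown region to 3 stretches with 8. Bottom, the regions of the stretch on chromosome 11 that holds 8, by distance from its start in kb, where 7 of the 8 lie in its first 15 kb and the last lies beyond a common region of 11636 bp.

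The stretch with the most gap-filling regions, taken as the longest of those with 8, lay on chromosome 11 at 87623158 to 87652423 (29266 bp, GRCm39). Its 8 gap-filling regions, of 227 to 553 bp and scores of 3.67 to 5.88, lay among 10 common regions of 367 to 11636 bp. It also held 4 other knockdown regions, one of which, of 1209 bp, linked a pair of the common regions. The others with 8 lay on chromosome 16 at 19048970 to 19064720 (15751 bp) and on chromosome 18 at 80735349 to 80750588 (15240 bp), with 11 and 9 common regions of at most 2691 bp. A stretch on chromosome 4 at 3675700 to 3691189 alternated without other pieces between 8 common and 7 gap-filling regions. On chromosome 19 at 21620168 to 21640164 there were 6, beside 4 other knockdown regions and 1 wild-type region. The scores of the gap-filling regions in these 5 stretches did not exceed 6.78.

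The 5 longest stretches held between 2 and 8 gap-filling regions. The longest, on chromosome 7 at 109819729 to 109853152 (33424 bp), held 3 gap-filling regions of 244 to 466 bp between 4 common regions, the largest of 16938 bp. On chromosome 13 at 52735221 to 52765946 (30726 bp) there were 2 between 3 common regions, and on chromosome 11 at 22784862 to 22816427 (31566 bp) 5 between 6. The fourth was the chromosome 11 stretch with 8, and the next, on chromosome 14 at 79751694 to 79777144 (25451 bp), held 3. Genes are not named for these positions, because no annotation of GRCm39 was used.

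The 8 gap-filling regions with the highest scores were 340 to 751 bp long, and 7 of them abutted both flanks without overlap. The highest, with a score of 47.4, spanned 442 bp on chromosome 18 at 82710679 to 82711120, between flanks of 2635 and 700 bp. The next lay on chromosome 11 at 6425674 to 6426094 (421 bp, score 44.1), between flanks of 4892 and 1992 bp. On chromosome 8 a region of 751 bp at 125675407 to 125676157 (score 38.0) had flanks of 2634 and 2280 bp. A further pair lay on chromosome 5, at 36641356 to 36641854 (score 37.6) and at 34527262 to 34527740 (score 36.9). Chromosome 17 carried one at 66090137 to 66090526 with a score of 34.6. The last of the 8 were found on chromosome 4 at 131988600 to 131988939, scoring 30.6, and on chromosome 8 at 127320266 to 127320609, scoring 29.9. The flanks of these 8 regions scored between 0.123 and 0.757, and their ratios lay between 1.16 and 3.76.

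The most unequal pairs combined a very long flank with one near the minimum of 200 bp. On chromosome 13 at 53078071 to 53078537 a region scoring 4.34 joined a flank of 11503 bp to one of 200 bp, a ratio of 57.5. On chromosome 16 at 58334738 to 58335698 the flanks were 15700 and 301 bp. On chromosome 18 at 69734041 to 69734377 they were 10524 and 203 bp, on chromosome 7 at 79847177 to 79847480 they were 325 and 16753 bp, and on chromosome 13 at 83681827 to 83682545 they were 11652 and 271 bp. In each of these 5 the short flank had the higher score, between 1.08 and 2.47, against 0.295 to 0.710 for the long flank.

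In the 5 pairs with the longest shorter flank, a gap-filling region lay between very long common regions, with ratios of 1.01 to 1.56. On chromosome 11 at 22800253 to 22800775 (score 3.75) the flanks were 12423 and 12360 bp and only 141 bp lay between them. On chromosome 13 at 52747200 to 52747516 they were 12013 and 15705 bp, on chromosome 19 at 4241878 to 4242095 they were 8379 and 12868 bp, on chromosome 1 at 132980651 to 132980880 they were 8820 and 8012 bp, and on chromosome 17 at 7040096 to 7040420 they were 7784 and 12128 bp. Scores of these 5 regions lay between 3.75 and 4.98.

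Over the chromosomes, gap-filling knockdown regions numbered between 3.19 per 100 common regions on chromosome 2 and 10.2 on chromosome 19, with a median of 6.08. Wild-type counterparts varied less, between 3.50 on chromosome 16 and 6.98 on chromosome 12, with a median of 4.77. Knockdown outnumbered wild type on 15 of 18 autosomes, where the lists held 13088 knockdown and 5015 wild-type regions of any kind. On chromosomes 2, 6 and 12 the counts were 102, 101 and 63 knockdown against 190, 109 and 115 wild-type regions. Regions of any kind on these chromosomes numbered 756, 666 and 391 in the knockdown list and 478, 279 and 283 in the wild-type list. As a share of all knockdown regions of a chromosome, the gap-filling ones ranged from 13.5% on chromosome 2 to 24.9% on chromosome 19. The median length of the regions, in contrast, stayed between 328 and 383 bp, and the share of stretches with a single one between 76.3 and 92.2%. Chromosome 15 is outside the rule and stood apart. It had 444 such knockdown regions, 21.2 per 100 common regions, against 52 wild-type regions. Knockdown regions spanned 47.7% of its gaps under 1000 bp, against 8.45 to 25% on the 18 autosomes. Knockdown regions of any kind were numerous there too, with 1646 against 98 wild-type regions, beside 2095 common regions. The 444 made up 27.0% of the knockdown regions of chromosome 15. Its median ratio was 2.32 beside knockdown and 2.33 beside wild-type regions, and the order of these 2 ratios seen on the other autosomes did not appear there. The shorter flank kept its order on chromosome 15, with medians of 569.5 bp beside knockdown regions, 973 bp beside wild-type regions and 343 bp beside empty gaps.

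**Figure D5:**
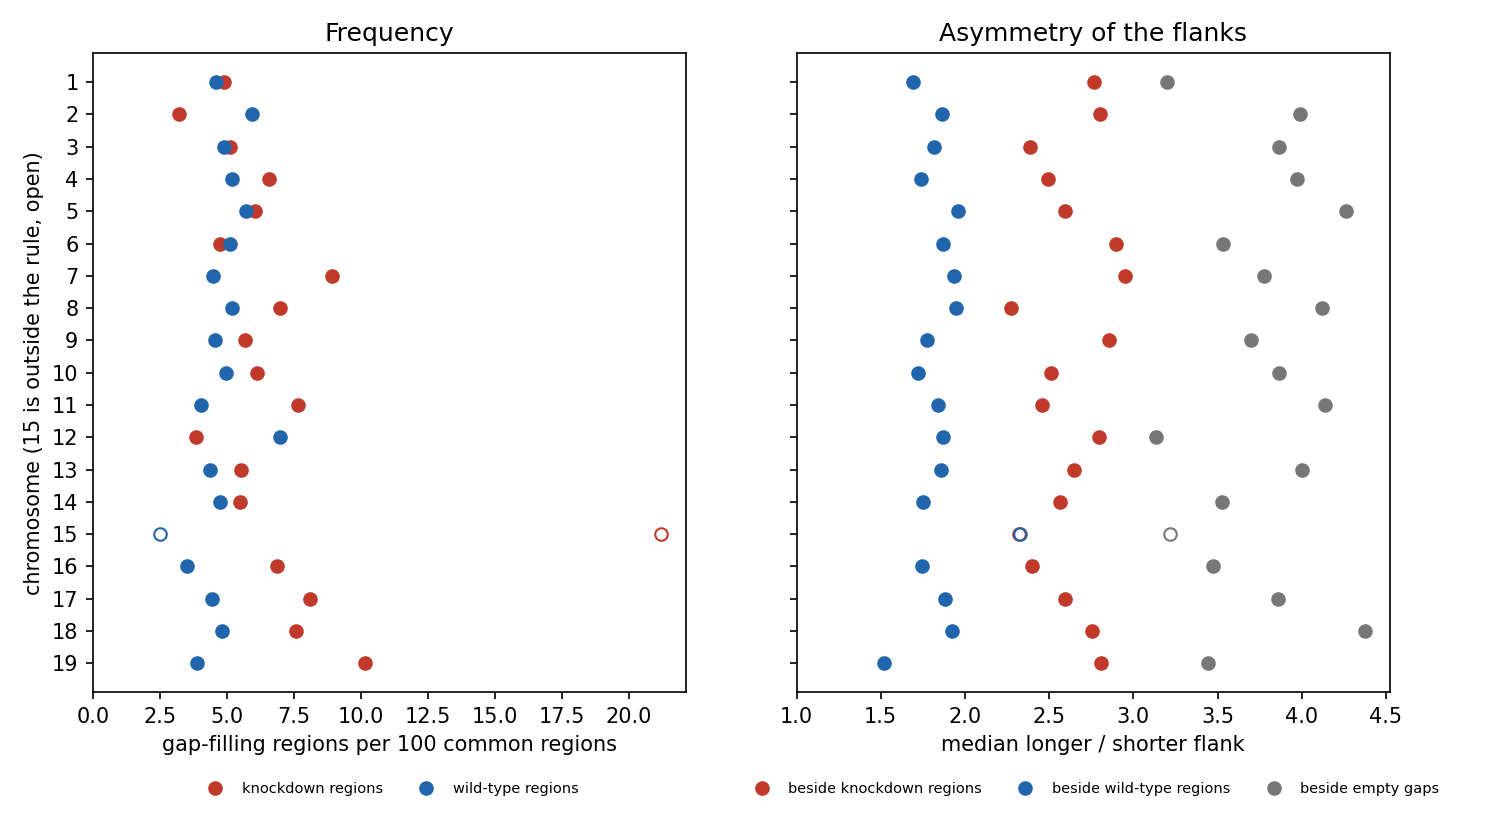
Left, gap-filling knockdown and wild-type regions per 100 common regions (x axis) by chromosome (y axis). Right, median ratio of longer to shorter flank beside knockdown regions, wild-type regions and empty gaps. Chromosome 15 (open points) has 21.2 gap-filling knockdown regions per 100 common regions, and 1646 knockdown regions of any kind beside 2095 common regions. On the 18 other autosomes the ratio beside knockdown regions lies between those beside wild-type regions and empty gaps.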

How the data were processed

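H3K4me3 ChIP-seq libraries of KDM1A-knockdown and wild-type leukemic splenocytes were compared by the authors, who deposited 3 region lists with 1 score per region. The submitters' processing notes name the aligner Bowtie2 (version 2.2.9), the peak caller MACS2 (version 2.2.6), SAMtools (version 1.6) and the genome build GRCm39. The sources used here give no settings, filters or pooling and do not define the score. The deposited score lay above 3 in knockdown and wild-type regions and below 3 in common regions, and no region was shorter than 200 bp.

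Lists were analysed as deposited, using scipy 1.17.1, numpy 2.4.6 and pandas 2.3.3 under Python 3.11.15, with matplotlib 3.10.9 for plots. A flank is the common region that covers or lies within 1 bp of an end of a region and extends beyond it. Regions inside a single common region were left out, and 39 gap-filling knockdown regions also held a whole further common region. Wilson intervals are at 95%. The code was tested on simulated data. Coordinates are 1-based.

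The members, comparison sets and named regions were chosen with earlier results of these data known. Named were the 8 gap-filling regions with the highest score, the 5 with the largest ratio, the 5 with the longest shorter flank, the 5 stretches with the most members, the 5 longest stretches and the 3 regions on either side of the length limit. The tables of genes and promoters at hand are for another build, so genes, gene lists, promoters and sequences were not used here.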

Additional observations from a re-analysis of the deposited data

How the results depend on the processing

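Of 144 alternative values, 99 stayed within the 95% interval of the reported value (binomial, for medians by order statistics) or, for a number of regions, within 1.5 times of it. In 14 of 14 settings, the reported one included, the flank ratio was higher and the shorter flank shorter beside knockdown than beside wild-type regions. For the others the cause was not tested, except where fewer regions follow from the setting. Regions that adjoined both flanks exactly numbered 144 (knockdown) and 368 (wild type). Their shorter flanks had medians of 771.5 and 1381 bp, and for knockdown the longer flank was 2651 bp, the higher-coordinate share 54.2%, stretches with 1 region 99.3% and stretch length 4863 bp. Contact within 100 bp gave a shorter flank of 524 bp. Without a length limit 80.3% of stretches had 1 region, and the wild-type shorter flank was 895 bp. Lengths under 500 bp gave flanks of 599 and 2204 bp and 87.2% of stretches with 1 region. A score of at least 5 left 587 knockdown and 1179 wild-type regions, with a longer flank of 2226 bp, a higher-coordinate share of 52.0%, 96.1% of stretches with 1 region, a stretch length of 4626 bp and a wild-type shorter flank of 1168 bp. Scores at or above the list median left 1089 and 1082 regions, with 53.0%, 91.2%, 4555 bp and 1217 bp for the last 4 quantities. With both flanks at least 500 bp, 1412 knockdown regions had flanks of 951 and 2726 bp, a ratio of 2.25, 56.2% of ratios at least 2, 87.1% of stretches with 1 region and a stretch length of 5160 bp, and the wild-type ratio and shorter flank were 1.64 and 1289 bp. Joining gap-filling and common regions alone gave stretches of 3706 bp.

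The following were chosen after seeing the data. Flanks less the bases shared with the region had a shorter flank of 481.5 bp, a ratio of 2.91 and 66.2% of ratios at least 2. Regions alone of their kind in a stretch numbered 1658, with a longer flank of 2281 bp and stretches of 3951 bp, and a wild-type ratio and shorter flank of 1.75 and 1079 bp. Adding chromosome 15, leaving out each of the 18 autosomes in turn and leaving out regions with a further common region inside moved none of the values beyond these bounds. No paired analysis was possible because each list is 1 result over all replicates, and no replicate could be left out. Gene positions and gene lists were not run. Depth is unknown, so what it limits cannot be stated.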

Other observations

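On the sex chromosomes, which the rule leaves out, the counts were small. X held 8 knockdown and 55 wild-type regions between common regions, or 1.04 and 7.17 per 100 common regions, and wild-type regions spanned 26.2% of its gaps under 1000 bp. The whole lists differed in the same direction on X, with 70 knockdown and 210 wild-type regions of any kind. On Y they held 19 knockdown regions and 1 wild-type region. Y held 1 knockdown region of 631 bp, with a score of 10.9, and no wild-type region in this position, beside 12 common regions, or 8.33 knockdown regions per 100 common regions. The labels give no sex.

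Neighbouring common regions 1 to 5 kb apart, too far for a gap-filling region of under 1000 bp, had flanks with a median ratio of 2.77 (n = 5133), between those of gap-filling knockdown regions (2.63) and empty gaps under 1000 bp (3.82). Their ratio was at least 2 in 62.7% of pairs, against 62.4% at gap-filling knockdown regions. Their shorter member had a median of 375 bp.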
